A study of Mus musculus with 16 samples.

Results

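The 31 genes described here code for the enzymes that make cholesterol, the SREBP system that controls them, and the proteins that export or store it. They were taken by name from the gene list of these pathways, keeping rows with more than 10 counts in at least 4 of the 16 libraries. All 31 listed genes passed, among 14565 genes tested of 24421 rows in the table. RNA-Seq was done on CD11b+ cells from the brains of C57BL/6J mice, 1 library per mouse. CON mice (4 libraries) ate standard chow from weaning. MAL mice (5 libraries) ate an isocaloric diet low in protein and fat for about a month. MAL-BG mice (7 libraries) ate the MAL diet and were also given oral gavages of a mix of E. coli and Bacteroidales species, a model of fecal-oral contamination. The methods give PBS gavages to the other groups, and describe female C57BL/6J mice for the diet trial. The ages at tissue collection are not given in the labels. The labels name cortical tissue and the methods whole cerebra. Cells were enriched on CD11b magnetic beads rather than sorted, so other cell types remained in the libraries. The gavage was given to malnourished mice alone, so the bacterial exposure can be compared with MAL but not with a chow-fed group that received bacteria.

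Cells build cholesterol from acetyl-CoA through mevalonate to squalene, which is closed into lanosterol and then trimmed to cholesterol. When sterols in the endoplasmic reticulum are scarce, SCAP escorts SREBP proteins to the Golgi, where they are cut and released to switch on the synthesis genes. When sterols are plentiful, INSIG proteins hold SCAP back. Oxysterols activate the nuclear receptors LXRα and LXRβ, which raise sterol export through ABC transporters. In brain, cholesterol is made locally because lipoproteins do not cross the blood-brain barrier. Astrocytes and myelinating oligodendrocytes make most of it, while microglia take up lipid from myelin and debris and must export or esterify the surplus.

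Libraries held 10312703 to 13461574 counts in CON, 10864121 to 12819982 in MAL, and 14191791 to 18705202 in MAL-BG, so each MAL-BG library was deeper than each library of the other groups. Microglia markers were present at high level in every library, with summed levels of 15466 to 25453 CPM (read counts scaled to library size) in CON, 16108 to 27635 in MAL, and 33681 to 46067 in MAL-BG. Markers of other cells were also present. Choroid plexus markers summed to 10660 to 41128 CPM in CON, 4965 to 32356 in MAL, and 1467 to 13096 in MAL-BG. Astrocyte markers summed to 277 to 610 CPM in CON, 340 to 553 in MAL, and 147 to 257 in MAL-BG. Neuron markers summed to 37.0 to 202 CPM, 63.7 to 165, and 15.3 to 62.0 in the same order. Oligodendrocyte markers overlapped between the groups, at 420 to 1074 CPM, 594 to 928, and 501 to 1222. Neutrophil markers reached 11470 CPM in MAL-BG library 5, against at most 2792 in any other library. In MAL-BG, 4 of 8 microglia markers were differentially expressed genes (DEGs) in the higher direction against CON. By contrast, 8 of 8 choroid plexus, 7 of 8 neuron, and 5 of 8 astrocyte markers were DEGs in the lower direction. Against CON, 7 of 8 neutrophil, 3 of 8 oligodendrocyte, and 2 of 8 endothelial markers were also DEGs in the higher direction. Endothelial markers summed to 714 to 2361 CPM in CON, 617 to 1789 in MAL, and 1471 to 4048 in MAL-BG. Monocyte markers summed to 1078 to 1459 CPM in CON, 1023 to 1227 in MAL, and 328 to 1457 in MAL-BG. Border macrophage markers summed to 208 to 607 CPM, 239 to 737, and 191 to 315 in the same order. Of the 6 markers on each list, 2 monocyte and 1 border macrophage markers were lower DEGs against CON, and 3 and 2 against MAL. No marker was at 0 in all MAL-BG libraries. The part of these cell types in the results below was not tested, and fewer cells of a type cannot be told apart from less RNA per cell.

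**Figure D1:**
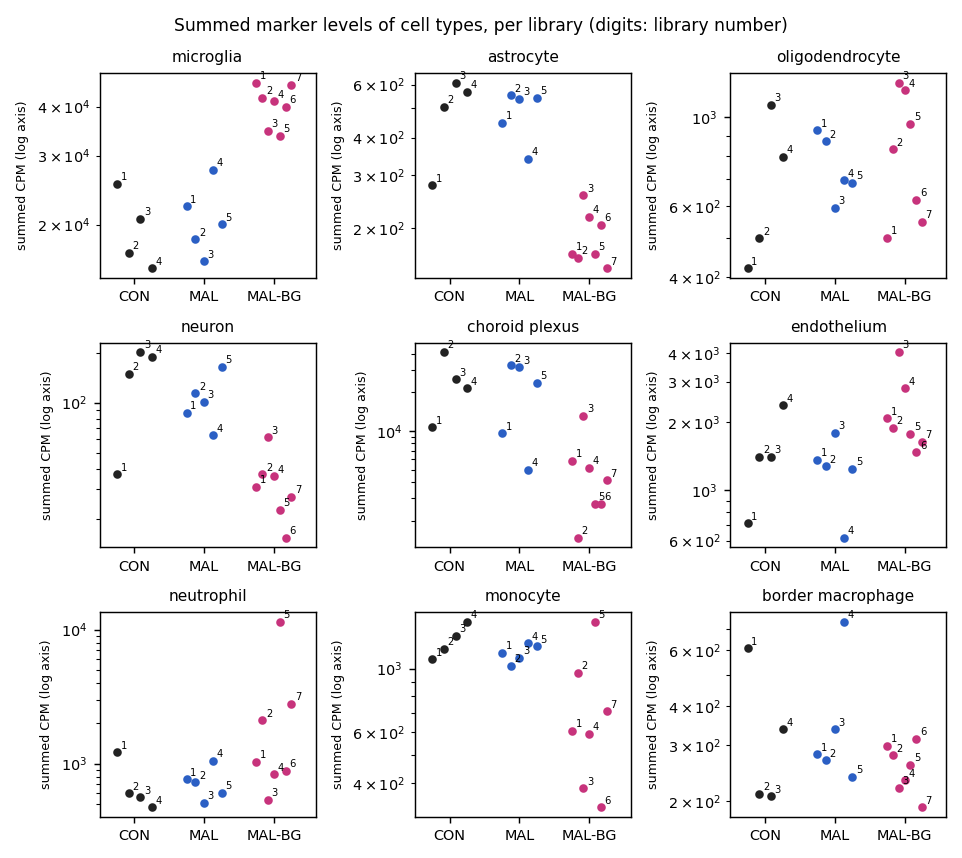
Summed CPM of the marker genes of 9 cell types (y axes, log scale) in each library of CON, MAL, and MAL-BG, with the library number beside each point. Microglia sums in the 7 MAL-BG libraries lay above all others, and astrocyte sums below all others.

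A gene counted as a DEG when its adjusted p was under 0.05 and its log2 fold change was beyond 0.58 in size. Against CON, 10 of the 31 cholesterol genes were DEGs in MAL-BG, 4 higher and 6 lower. The background was high, since 33.1% of all genes tested were DEGs in this comparison, 11.4% higher and 21.7% lower. Against MAL, 9 of the 31 were DEGs, 4 higher and 5 lower, beside 30.4% of all genes, 10.2% higher and 20.2% lower. The count of DEGs among the cholesterol genes was therefore near that of all genes. The median of their log2 fold changes stood at 0.05 against CON and 0.08 against MAL, beside -0.04 and -0.03 over all genes tested. In both comparisons 16 of the genes had positive values and 15 negative ones. Without the fold threshold, 4 were higher and 8 lower against CON (19.8% and 25.2% of all genes), and 6 were higher and 7 lower against MAL (20.2% and 24.1%). At an unadjusted p under 0.05 there were 14 against CON and 15 against MAL, beside 52.7% and 52.2% of all genes. Both comparisons use the same MAL-BG libraries, so they are not independent. The 4 higher genes, DEGs in both, were Ebp, Abcg1, Lpcat3, and Soat1 (8.17% of all genes were higher DEGs in both). Idi1, Sqle, Lss, Insig1, and Stard4 were lower in both (18.2% of all genes), and Nsdhl was lower against CON.

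Between MAL and CON, none of the 31 genes passed the test. The count of DEGs was 0 in edgeR, 0 of these genes had an unadjusted p under 0.05, and over all genes 0% were DEGs and 212 (1.46%) had an unadjusted p under 0.05. DESeq2 also gave 0 DEGs. Log2 fold changes of the 31 genes in MAL against CON ran from -0.33 for Insig1 (SE 0.18, unadjusted p = 0.083) to 0.10 for Soat1 (SE 0.12), with a median of -0.03.

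**Figure D2:**
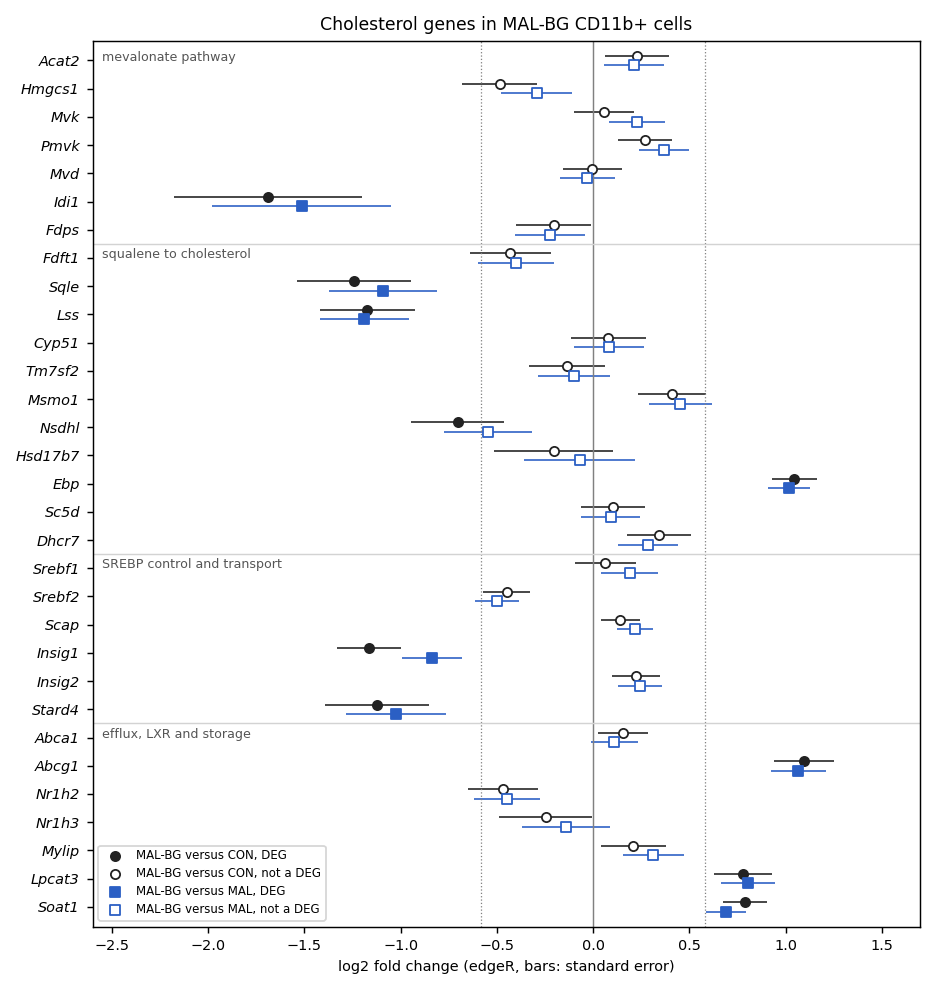
Log2 fold changes of the 31 genes in MAL-BG against CON (circles) and against MAL (squares), with bars of 1 standard error from edgeR, and filled symbols for DEGs. Dotted lines mark 0.58 in each direction. Filled symbols sit left of 0 for synthesis and SREBP genes except Ebp, and right of 0 in the efflux and storage group.

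By role, 1 of 7 mevalonate pathway genes was a DEG against CON, and it was lower. Of 11 genes from squalene to cholesterol, 1 was higher and 3 were lower. Of 6 genes of SREBP control and sterol transport, 2 were lower. Of 7 genes of efflux, LXR, and storage, 3 were higher and 0 lower. Against MAL the counts were the same apart from Nsdhl. Of all genes tested, 11.4% were higher and 21.7% lower DEGs against CON, and 10.2% and 20.2% against MAL. Groups of 6 to 11 genes are small beside these shares, and no difference between the roles was tested.

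MAL-BG libraries 1, 5, and 6 stood apart from MAL-BG libraries 2, 3, 4, and 7 in many of these genes, a split seen in the values and not given by any label. For 14 of the 31 genes the values of these sets did not overlap, beside 27.6% of all genes tested. The split was picked from these same values, so this count is no test of it. Libraries 1, 5, and 6 were above the other MAL-BG libraries for Lss, Nsdhl, Insig1, Fdps, Dhcr7, Lpcat3, and Nr1h2. They were below them for Mvk, Pmvk, Fdft1, Cyp51, Msmo1, Srebf1, and Nr1h3. Enzymes of the same pathway thus lay on opposite sides of the split. These 3 libraries were also the deepest, at 17323278 to 18705202 counts beside at most 16863746 in the other MAL-BG libraries. No marker sum of the 9 cell types split this way. The study's own code includes a batch term, but the batch of each library is not given in the sources used here, and whether a batch moves with the split was not tested. Counts of DEGs are given below with and without each set.

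With libraries 1, 5, and 6 left out, 12 of the 31 genes were DEGs against CON (5 higher and 7 lower) and 12 against MAL. Of all 14440 genes tested in that fit, 2169 were higher and 3192 lower against CON, and 2094 and 3023 against MAL. With libraries 2, 3, 4, and 7 left out, 9 of the 31 genes were DEGs against CON (5 higher and 4 lower) and 8 against MAL. Of all 14394 genes tested there, 1463 were higher and 2639 lower against CON, and 1063 and 2372 against MAL. Counts over all genes were thus also smaller in the second fit. Ebp, Abcg1, Lpcat3, Soat1, Sqle, Lss, and Insig1 were DEGs in both comparisons under either choice. Idi1 and Stard4 were not DEGs without libraries 2, 3, 4, and 7, at adjusted p = 0.057 for Idi1 and adjusted p = 0.056 for Stard4 against CON.

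**Figure D3:**
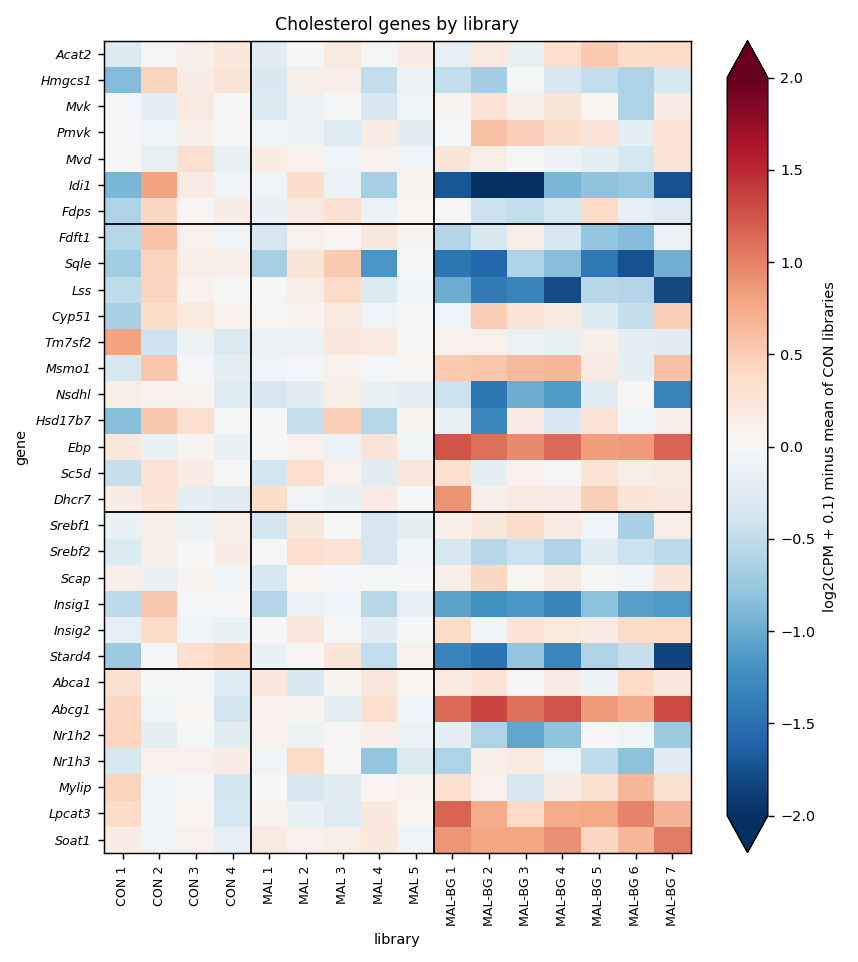
Log2(CPM + 0.1) of the 31 genes (rows, in order of role) in each of the 16 libraries (columns), minus the mean of the CON libraries, on a colour scale that ends at 2 in each direction. Ebp, Abcg1, Lpcat3, and Soat1 are red in all 7 MAL-BG libraries, and Insig1, Sqle, and Lss are blue in all 7. Blue for Nsdhl is deepest in MAL-BG libraries 2, 3, 4, and 7.

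The 250 bases before the annotated start are shown for 7 genes, so that they can be read beside the values. Idi1, Lss, and Insig1 were lower DEGs in MAL-BG, Ebp, Lpcat3, and Soat1 were higher DEGs, and Hmgcs1 was not a DEG. RefSeq promoters on GRCm38.p6 matched 26 of the 31 genes, and Fdps, Fdft1, Sqle, Stard4, and Abcg1 had none in the table used. Capitals mark 4 motifs searched on both strands. These were the SREBP site TCACNCCAC, the CCAAT box (CCAAT), the E-box CACGTG, and the LXR repeat known as DR4. None of the capitals in these windows belongs to more than 1 motif. The windows lie at chr13:119690101-119690350 (Hmgcs1, plus strand), chr13:8885356-8885605 (Idi1, plus), chr10:76531355-76531604 (Lss, plus), chr5:28071162-28071411 (Insig1, plus), chrX:8193513-8193762 (Ebp, minus), chr6:124662854-124663103 (Lpcat3, plus), and chr1:156474329-156474578 (Soat1, minus), and each is written 5′ to 3′ on its gene's strand. The Lss and Lpcat3 windows end just inside the annotated gene, because the start used is not its outermost base.
Hmgcs1: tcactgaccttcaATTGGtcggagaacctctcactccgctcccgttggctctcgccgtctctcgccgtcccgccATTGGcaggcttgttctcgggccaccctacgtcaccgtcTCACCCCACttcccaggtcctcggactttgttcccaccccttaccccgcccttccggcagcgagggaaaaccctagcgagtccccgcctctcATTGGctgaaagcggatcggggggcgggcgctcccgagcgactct
Idi1: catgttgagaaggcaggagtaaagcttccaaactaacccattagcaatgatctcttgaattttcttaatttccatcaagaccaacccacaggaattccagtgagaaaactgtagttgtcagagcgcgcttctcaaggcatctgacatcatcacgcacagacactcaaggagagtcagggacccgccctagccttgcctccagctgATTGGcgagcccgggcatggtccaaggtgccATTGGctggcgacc
Lss: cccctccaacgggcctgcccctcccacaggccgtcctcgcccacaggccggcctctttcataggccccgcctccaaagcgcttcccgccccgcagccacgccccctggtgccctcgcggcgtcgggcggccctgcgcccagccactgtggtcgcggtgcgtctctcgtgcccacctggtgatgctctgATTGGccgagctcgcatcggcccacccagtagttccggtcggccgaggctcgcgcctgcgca
Insig1: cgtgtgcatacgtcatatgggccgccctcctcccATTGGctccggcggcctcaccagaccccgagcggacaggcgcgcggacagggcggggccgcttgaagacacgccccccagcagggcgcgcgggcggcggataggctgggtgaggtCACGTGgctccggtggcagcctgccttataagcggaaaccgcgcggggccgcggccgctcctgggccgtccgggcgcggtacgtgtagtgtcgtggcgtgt
Ebp: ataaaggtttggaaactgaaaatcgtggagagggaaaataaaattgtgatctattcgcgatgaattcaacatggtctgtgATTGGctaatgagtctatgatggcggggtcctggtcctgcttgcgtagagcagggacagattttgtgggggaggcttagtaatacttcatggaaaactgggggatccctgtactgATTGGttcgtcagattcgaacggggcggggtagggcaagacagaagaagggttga
Lpcat3: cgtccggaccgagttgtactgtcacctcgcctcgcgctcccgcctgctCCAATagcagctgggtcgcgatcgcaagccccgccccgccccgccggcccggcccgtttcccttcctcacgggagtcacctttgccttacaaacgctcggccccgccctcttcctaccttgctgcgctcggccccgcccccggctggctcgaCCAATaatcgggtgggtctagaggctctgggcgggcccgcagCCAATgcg
Soat1: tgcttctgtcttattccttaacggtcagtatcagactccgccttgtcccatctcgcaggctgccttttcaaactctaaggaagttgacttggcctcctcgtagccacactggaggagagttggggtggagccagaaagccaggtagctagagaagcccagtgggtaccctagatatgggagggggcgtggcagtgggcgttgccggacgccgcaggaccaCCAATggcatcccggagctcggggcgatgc

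The 26 genes had 35 windows, since some have several annotated starts. The SREBP site was in 1 of the 35, that of Hmgcs1, in capitals 137 to 129 bases before the start, and in 1.05% of the 32851 mouse windows in the table. Insig1 has the E-box at 101 to 96 bases before the start. It was in 6 of the 35 windows and in 6.02% of all windows. CCAAT boxes were in 22 of the 35 windows, including all 7 shown, beside 33.9% of all windows. They stand in windows of lower genes (Idi1, Lss, Insig1) and of higher ones (Ebp, Lpcat3, Soat1) alike. The LXR repeat was searched only as an exact match to its fixed letters. It was in 0 of the 35 windows, beside 5 of all 32851 windows (0.0152%). A pattern this rare would be absent from most sets of 35 windows. The count of 0 therefore cannot decide whether these genes have LXR sites near the start. Sites with other letters were not searched. A match is a run of letters and was not tested as a binding site.

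Of the 7 mevalonate pathway genes, Idi1 fell in MAL-BG and the other 6 were not DEGs. Idi1 (chr13:8885606-8892396) codes for the isomerase that turns isopentenyl diphosphate into dimethylallyl diphosphate. It was the weakest of the 31 genes per length of exon, at 0.615 CPM per kb in CON. Its CPM were 0.998, 3.53, 2.21, and 1.89 in CON and 1.87, 2.54, 1.81, 1.21, and 2.07 in MAL. In MAL-BG the lowest was 0.0766, the median 0.531, and the highest 1.13. Every MAL-BG library lay below every MAL library, while CON library 1 lay inside the MAL-BG range. Idi1 was 3.22-fold lower than in CON (log2 fold change -1.69, SE 0.49, adjusted p = 0.0099) and 2.86-fold lower than in MAL (-1.51, SE 0.46, adjusted p = 0.014). These values rest on few reads, from 1 to 20 counts in MAL-BG and 13 to 38 in CON. Without CON library 2 the log2 fold change was -1.36 with adjusted p = 0.056. Exons of an antisense gene, Gm48574, overlap those of Idi1, and the strand option of the counting is not given in the sources used here.

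Hmgcs1 (chr13:119690351-119708260), which joins acetoacetyl-CoA with acetyl-CoA, was the strongest synthesis gene per length, at 18.2 CPM per kb in CON. Its CPM were 43.3, 108, 87.6, and 94.9 in CON and 64.0, 85.6, 86.4, 55.8, and 73.7 in MAL. In MAL-BG they ran from 49.0 through a median of 56.1 to 77.0. CON library 1 was below all the MAL-BG libraries, and the other 3 CON libraries were above them all. Against CON the log2 fold change was -0.49 (SE 0.20, adjusted p = 0.052), and against MAL -0.29 (SE 0.18, adjusted p = 0.20). Without CON library 1 it was -0.72 against CON, with adjusted p = 0.0010, which makes Hmgcs1 a DEG. CON library 1 and MAL library 4 had the lowest Hmgcs1 and Sqle of their groups. They also had the lowest sums of choroid plexus (10660 and 4965 CPM), astrocyte (277 and 340), neuron (37.0 and 63.7), and endothelial markers. Their microglia sums were the highest of their groups, at 25453 and 27635 CPM. MAL-BG library 3 had the highest Hmgcs1 and Sqle of its group, and the highest choroid plexus, astrocyte, neuron, endothelial, and oligodendrocyte sums. In MAL-BG library 3, Idi1 was the second lowest of its group (0.207 CPM), and Lss (6.48 CPM) and Insig1 (18.7 CPM) were not the highest. CON library 1 was also the lowest of its group for Idi1, Lss, Insig1, and Stard4, but not for Nsdhl. MAL library 4 was the lowest of its group for Idi1 (1.21 CPM), Lss (13.5 CPM), and Stard4 (6.20 CPM), but not for Insig1 or Nsdhl. Any link between these genes and the marker sums was not tested.

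The other 5 genes of the mevalonate pathway were not DEGs. Acat2, the cytosolic thiolase at the first step, had log2 fold changes of 0.23 and 0.21 against CON and MAL. Mvk and Pmvk, the kinases that phosphorylate mevalonate, had 0.05 and 0.27 against CON. Pmvk passed the adjusted p against MAL (0.37, SE 0.13, adjusted p = 0.031) but not the fold threshold. Mvd, the decarboxylase that makes isopentenyl diphosphate, had 0.00 against CON (SE 0.15), with means of 9.95 ± 1.63 CPM (SD, n = 4) in CON and 9.93 ± 1.56 (SD, n = 7) in MAL-BG. Fdps, which makes farnesyl diphosphate, had -0.20 and -0.22. Exons of Fdps overlap those of Gm43738 on the same strand.

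From squalene to cholesterol, Sqle, Lss, and Nsdhl fell, and Ebp rose. Sqle (chr15:59315092-59331193) codes for squalene epoxidase, a rate-limiting enzyme late in the pathway. Its CPM were 11.4, 25.6, 20.2, and 19.8 in CON and 11.7, 21.8, 26.7, 8.22, and 18.2 in MAL. In MAL-BG the lowest was 5.47, the median 6.83, and the highest 12.1. The groups overlapped through CON library 1 and MAL libraries 1 and 4. These 3 libraries had the lowest choroid plexus, astrocyte, and neuron sums outside MAL-BG. Sqle was 2.37-fold lower than in CON (log2 fold change -1.24, SE 0.30, adjusted p = 0.0030) and 2.13-fold lower than in MAL (-1.09, SE 0.28, adjusted p = 0.0051). Without CON library 1 and MAL library 4 it was still a DEG in both comparisons.

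Lss (chr10:76531565-76557139) codes for lanosterol synthase, which closes squalene epoxide into the sterol rings. CPM were 11.4, 22.2, 17.2, and 16.3 in CON and 16.5, 17.7, 21.3, 13.5, and 15.8 in MAL. MAL-BG ran from 4.60 through 6.48 to 11.1, and all 7 libraries were below all 9 others, which 6.36% of all genes tested also showed. The fall was 2.25-fold against CON (log2 fold change -1.17, SE 0.25, adjusted p = 0.0012) and 2.28-fold against MAL (-1.19, SE 0.23, adjusted p = 0.00080). MAL-BG libraries 5 and 6 were the highest of the group, at 11.1 and 10.8, and libraries 4 and 7 the lowest, at 4.67 and 4.60. By mean log2 CPM scaling it had -0.91 against CON and -0.96 against MAL. Under that scaling with gene length and GC content modelled as well, Lss had -0.63 and -0.67, still a DEG in both. Exons of the antisense gene 4930483K19Rik overlap those of Lss.

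Nsdhl (chrX:72918521-72958528), a dehydrogenase that helps to remove the methyl groups of lanosterol, had CPM of 17.8, 17.1, 16.8, and 13.6 in CON. In MAL they were 12.9, 13.8, 17.6, 14.7, and 14.2. MAL-BG gave 12.03, 13.7, and 16.5 in libraries 1, 5, and 6 and 5.90, 8.13, 7.35, and 6.38 in libraries 2, 3, 4, and 7. Libraries 5 and 6 lay within the range of CON and MAL, library 1 lay just below it, and the other 4 were below all other libraries. Over all 7 libraries Nsdhl had -0.70 against CON (SE 0.24, adjusted p = 0.026) and -0.54 against MAL (SE 0.23, adjusted p = 0.062). Without libraries 2, 3, 4, and 7 it was -0.17 against CON, with adjusted p = 0.44. Without libraries 1, 5, and 6 it was -1.05 against MAL, with adjusted p = 0.00015. The call for Nsdhl against CON was also lost when any of CON libraries 1, 2, or 3 or MAL-BG libraries 2, 4, or 7 was left out alone, with log2 fold changes of -0.54 to -0.69.

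**Figure D4:**
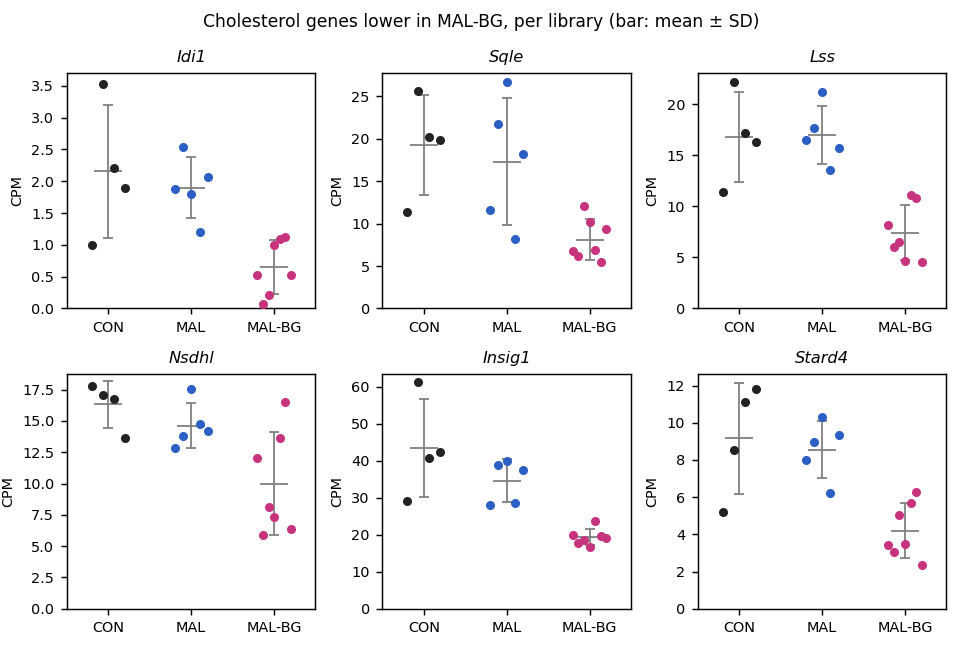
CPM (y axes, from 0) of the 6 cholesterol genes that were lower DEGs in MAL-BG against CON, per library of CON, MAL, and MAL-BG, with the mean and SD as bars. Insig1 and Lss do not overlap with the other groups, and Nsdhl in MAL-BG falls into 3 higher and 4 lower libraries.

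Ebp (chrX:8185329-8193512) moved the other way. It codes for the sterol isomerase that shifts the double bond of the second ring. CPM were 36.2, 28.3, 32.2, and 28.2 in CON and 31.2, 33.1, 28.5, 37.1, and 29.3 in MAL. MAL-BG ran from 55.3 through 66.7 to 74.5, above all 9 other libraries (6.17% of all genes tested were above in the same way). Ebp was 2.06-fold higher than in CON (log2 fold change 1.04, SE 0.12, adjusted p = 1.27e-05) and 2.02-fold higher than in MAL (1.02, SE 0.11, adjusted p = 1.04e-05). Its level per length rose from 13.5 CPM per kb in CON to 27.9 in MAL-BG.

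The other 7 genes of these steps were not DEGs. Fdft1, squalene synthase, stood at a log2 fold change of -0.43 against CON (SE 0.21, adjusted p = 0.10) and -0.40 against MAL. Without CON library 1 it was -0.61 with adjusted p = 0.018. Without MAL-BG libraries 2, 3, 4, and 7 it was -0.75, with adjusted p = 0.023. Exons of Fdft1 overlap antisense exons of Ctsb, a gene for a lysosomal protease. Msmo1, the methylsterol oxidase that acts in turn with Nsdhl, had 0.41 against CON (adjusted p = 0.067) and 0.45 against MAL (adjusted p = 0.033), both under the fold threshold. Without MAL-BG libraries 1, 5, and 6, Msmo1 was a higher DEG, at 0.62 against CON and 0.65 against MAL. Msmo1 and Nsdhl, which remove the same methyl groups, thus had log2 fold changes of opposite sign. Cyp51, the demethylase that acts on lanosterol, had 0.08 in both comparisons. Tm7sf2, a sterol reductase whose exons overlap those of Vps51, had -0.14 and -0.10. Hsd17b7, a ketone reductase, had -0.20 and -0.07. Sc5d, a sterol desaturase, had 0.10 and 0.09. Dhcr7, the reductase of the last step from dehydrocholesterol, had 0.34 and 0.28.

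Among the SREBP genes, Insig1 and Stard4 fell. Insig1 (chr5:28071412-28078662) codes for a protein of the endoplasmic reticulum that holds SCAP when sterols are plentiful, and is itself a known SREBP target. CPM were 29.2, 61.3, 40.8, and 42.4 in CON and 27.9, 38.7, 40.01, 28.6, and 37.5 in MAL. MAL-BG ran from 16.8 through 19.0 to 23.6, and all 7 libraries were below all 9 others. Insig1 was 2.24-fold lower than in CON (log2 fold change -1.16, SE 0.16, adjusted p = 7.31e-05) and 1.78-fold lower than in MAL (-0.84, SE 0.16, adjusted p = 0.00057). Its MAL-BG libraries lay close together, at 19.4 ± 2.17 CPM (SD, n = 7). Its paralog Insig2, which also holds SCAP, was at 46.4 ± 8.70 CPM (SD, n = 4) in CON and 54.2 ± 6.05 (SD, n = 7) in MAL-BG, with a log2 fold change of 0.22 (SE 0.12, adjusted p = 0.15). The 2 paralogs were at like levels per length in CON, at 14.04 and 13.4 CPM per kb, and at 6.26 and 15.6 in MAL-BG.

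Stard4 (chr18:33199138-33213862) codes for a cytosolic sterol carrier and is another known SREBP target. CPM were 5.22, 8.53, 11.1, and 11.8 in CON and 8.002, 8.95, 10.3, 6.20, and 9.32 in MAL. MAL-BG ran from 2.37 through 3.49 to 6.30. MAL-BG libraries 5 and 6, at 5.70 and 6.30, overlapped the lowest CON library, and library 6 also the lowest MAL library. Stard4 was 2.18-fold lower than in CON (log2 fold change -1.12, SE 0.27, adjusted p = 0.0034) and 2.03-fold lower than in MAL (-1.02, SE 0.26, adjusted p = 0.0045).

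Srebf2 and Srebf1 code for the SREBP proteins themselves, of which SREBP-2 drives sterol synthesis and SREBP-1 fatty acid synthesis. Srebf2 CPM were 69.0, 90.3, 83.7, and 92.9 in CON and 84.7, 104, 101, 66.4, and 80.0 in MAL. MAL-BG ran from 55.1 through 61.7 to 70.7, and overlapped CON library 1 and MAL library 4. Srebf2 was 1.36-fold lower than in CON (log2 fold change -0.45, SE 0.12, adjusted p = 0.0072) and 1.41-fold lower than in MAL (-0.50, SE 0.11, adjusted p = 0.0024), under the fold threshold. Without MAL library 4, Srebf2 was a lower DEG against MAL, at -0.59 (adjusted p = 0.00061). By mean log2 CPM scaling alone Srebf2 had -0.19 and -0.27. With length and GC content modelled under that scaling, where the median of all genes was 0.21 against CON and 0.20 against MAL, it had 0.08 and -0.04, so the sign against CON turned. Srebf1 CPM were 82.0, 97.2, 83.6, and 98.0 in CON and 68.7, 104, 89.99, 71.5, and 78.8 in MAL. In MAL-BG they ran from 57.5 through 98.7 to 115. The groups overlapped, with log2 fold changes of 0.06 (SE 0.16, adjusted p = 0.77) and 0.19 (SE 0.15, adjusted p = 0.31). Scap, the escort of both, had 0.14 and 0.22 (adjusted p = 0.26 and adjusted p = 0.072).

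In the efflux group, Abcg1 rose while Abca1 was not a DEG in the reported fit. Both code for ABC transporters that are induced by LXR. ABCA1 passes cholesterol to lipid-poor apolipoproteins and ABCG1 passes it on to lipidated particles. Abcg1 (chr17:31057694-31117984) CPM were 141, 99.8, 109, and 81.8 in CON and 112, 110, 93.7, 132, and 102 in MAL. MAL-BG ran from 179 through 232 to 268, above all 9 other libraries. Abcg1 was 2.14-fold higher than in CON (log2 fold change 1.10, SE 0.15, adjusted p = 7.43e-05) and 2.09-fold higher than in MAL (1.07, SE 0.14, adjusted p = 4.88e-05). Abca1 CPM were 331, 266, 259, and 223 in CON and 310, 216, 279, 311, and 274 in MAL. In MAL-BG they ran from 250 through 302 to 353, and the groups overlapped. Against CON it had a log2 fold change of 0.15 (SE 0.13, adjusted p = 0.35), and against MAL 0.11 (SE 0.12, adjusted p = 0.47). By mean log2 CPM scaling Abca1 had 0.40 and 0.33 (adjusted p = 0.064 and adjusted p = 0.094). With length and GC content modelled under that scaling it was a higher DEG in both, at 0.65 against CON (adjusted p = 0.0055) and 0.60 against MAL (adjusted p = 0.0060), beside medians of 0.21 and 0.20 over all genes.

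**Figure D5:**
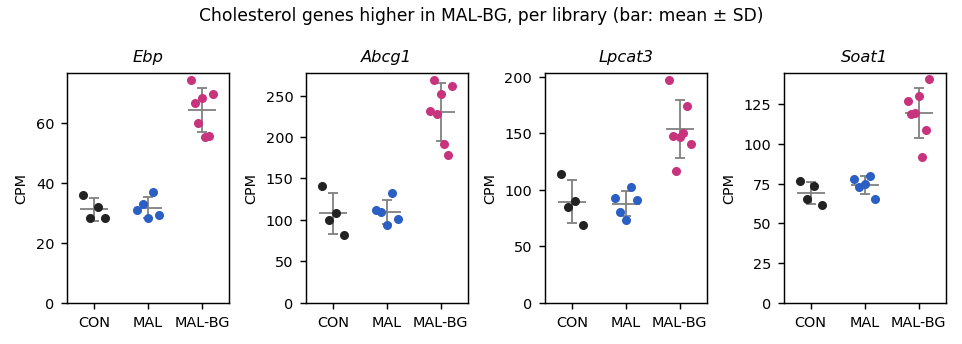
CPM (y axes, from 0) of Ebp, Abcg1, Lpcat3, and Soat1, per library of CON, MAL, and MAL-BG, with the mean and SD as bars. All 7 MAL-BG libraries lie above all 9 CON and MAL libraries for each gene.

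Lpcat3 (chr6:124663094-124704716) codes for an acyltransferase that puts polyunsaturated fatty acids into membrane phospholipids and is a known LXR target. CPM were 114, 84.5, 90.3, and 68.8 in CON and 92.4, 80.0, 73.6, 102, and 90.7 in MAL. MAL-BG ran from 117 through 148 to 197. The gap was narrow, as MAL-BG library 3 at 117 lay just above CON library 1 at 114. Lpcat3 was 1.71-fold higher than in CON (log2 fold change 0.78, SE 0.15, adjusted p = 0.00075) and 1.75-fold higher than in MAL (0.80, SE 0.14, adjusted p = 0.00035). Exons of Emg1 overlap those of Lpcat3 on the other strand.

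Soat1 (chr1:156428108-156474328) codes for the enzyme that esterifies cholesterol for storage in lipid droplets. CPM were 76.8, 65.1, 73.5, and 61.7 in CON and 77.8, 73.3, 74.9, 79.8, and 65.6 in MAL. MAL-BG ran from 92.1 through 120 to 141, and library 5 was the lowest. Soat1 was 1.73-fold higher than in CON (log2 fold change 0.79, SE 0.11, adjusted p = 8.54e-05) and 1.61-fold higher than in MAL (0.69, SE 0.10, adjusted p = 0.00012). In CON, MAL, and MAL-BG alike Soat1 was below Abcg1 and Lpcat3 per length, at 7.08 CPM per kb in CON and 12.2 in MAL-BG. Microglia markers had a median log2 fold change of 0.68 against CON and 0.67 against MAL, beside 0.78 to 1.10 and 0.69 to 1.07 for the 4 higher genes. The part of the microglial share in their rise was not tested.

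Of the LXR genes themselves, Nr1h2 (LXRβ) was the more abundant per length, at 34.0 CPM per kb in CON, beside 2.55 for Nr1h3 (LXRα). Nr1h2 CPM were 151, 98.2, 111, and 95.5 in CON and 119, 104, 114, 121, and 104 in MAL. In MAL-BG they were 98.0, 111, and 108 in libraries 1, 5, and 6 and 73.0, 54.6, 63.8, and 67.6 in libraries 2, 3, 4, and 7. The second set lay below all CON and MAL libraries and the first overlapped them. Over all 7 libraries Nr1h2 had -0.47 against CON (SE 0.18, adjusted p = 0.047) and -0.45 against MAL (SE 0.17, adjusted p = 0.045), under the fold threshold. It was -0.79 against CON and a lower DEG without libraries 1, 5, and 6. Nr1h3 CPM were 5.07, 6.77, 6.78, and 7.04 in CON and 6.13, 8.35, 6.45, 3.63, and 5.18 in MAL. MAL-BG ran from 3.57 through 5.42 to 7.31, within the range of the other groups apart from its lowest library. Against CON it had -0.25 (SE 0.24, adjusted p = 0.43). Mylip, a ubiquitin ligase induced by LXR that sends lipoprotein receptors for degradation, was the most abundant of the 31 genes per length, at 95.0 CPM per kb in CON. Mylip had 0.21 against CON (SE 0.17, adjusted p = 0.33) and 0.31 against MAL (SE 0.16, adjusted p = 0.12). Of the 4 LXR-induced genes of this group, Abca1, Abcg1, Mylip, and Lpcat3, 2 were higher DEGs in both comparisons, beside 8.17% of all genes. With length and GC content modelled under mean log2 CPM scaling, Abca1 was also a higher DEG in both, and Mylip was not. In that fit 3247 of 14565 genes were higher DEGs against CON and 2993 against MAL. Of 5 LXR partners and further LXR targets outside the 31 genes, 0 were DEGs in either comparison in the reported fit. LXR activity itself was not tested.

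Per length, the order of levels in CON ran from Mylip, Nr1h2, Lpcat3, and Abca1 (95.0, 34.0, 27.4, and 26.03 CPM per kb) down to Stard4, Lss, Hsd17b7, and Idi1 (1.64, 1.55, 1.06, and 0.615). Nr1h2, Lpcat3, and Abca1 overlapped within their spread, as did Stard4 and Lss. In MAL-BG, Lpcat3 (46.9) and Abcg1 (31.5) came directly after Mylip (110), ahead of Abca1 (29.0) and Ebp (27.9). Exon lengths came from GENCODE, whose union of Lss exons is long at 10787 bases and lowers that gene's level per kb.

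A wider list of 42 other cholesterol and lipid genes was read in the same fit. Against CON, 2 were higher DEGs and 11 lower, and against MAL 1 higher and 11 lower, with medians of 0.01 and -0.03. In both comparisons 9 were lower and 1 higher, beside the 18.2% and 8.17% of all genes. The 8 with the most extreme log2 fold changes against CON are named. Vldlr, a lipoprotein receptor, was the most extreme. Its CPM were 19.6, 59.2, 31.8, and 32.2 in CON, 22.6, 42.4, 49.6, 8.86, and 34.1 in MAL, and 2.07 to 13.5 in MAL-BG with a median of 4.07. It was 6.34-fold lower than in CON (log2 fold change -2.66, SE 0.46, adjusted p = 0.00029) and 5.60-fold lower than in MAL. Vldlr was lowest in library 1 within CON and library 4 within MAL, and highest in library 3 within MAL-BG. Those libraries had the lowest and highest choroid plexus, astrocyte, neuron, and endothelial sums of their groups.

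Among transporters, Abcg4, Abca5, and Abca2 fell, in contrast to Abcg1. Abcg4, a close relative of Abcg1 that also exports sterols, was at 1.31 to 3.34 CPM in CON, 0.967 to 4.55 in MAL, and 0.119 to 1.30 in MAL-BG. It was 4.65-fold lower than in CON (log2 fold change -2.22, SE 0.54, adjusted p = 0.0036) and 4.34-fold lower than in MAL. Abca2, a transporter of late endosomes and lysosomes, was at 131 to 196 CPM in CON, 92.2 to 167 in MAL, and 34.6 to 73.7 in MAL-BG, with no overlap. It was 3.08-fold lower than in CON (log2 fold change -1.62, SE 0.21, adjusted p = 3.68e-05) and 2.75-fold lower than in MAL. Abca5 had -1.80 and -1.61, and its groups overlapped through MAL-BG library 3, at 14.8 CPM. Abcg1 and its relative Abcg4 therefore had changes of opposite sign, and in CON they stood at 14.8 and 0.519 CPM per kb. Abcg4 rests on few reads, at 133 counts summed over CON and 65 over MAL-BG. Its fall stands beside 7 of 8 neuron and 5 of 8 astrocyte markers that were lower DEGs against CON. Whether Abcg1 and Abcg4 changed within the same cells was not tested.

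The 5 SREBP-1 targets of fatty acid synthesis all had negative values in both comparisons. Over all 14565 genes tested, 7650 were negative against CON and 7541 against MAL. Of the 5, 3 were lower DEGs in each comparison, beside 21.7% of all genes against CON and 20.2% against MAL. Scd1, the desaturase that makes monounsaturated fatty acids, was at 21.6 to 68.8 CPM in CON, 25.9 to 67.1 in MAL, and 8.38 to 40.7 in MAL-BG. It was 2.74-fold lower than in CON (log2 fold change -1.45, SE 0.39, adjusted p = 0.0062). Elovl6, an elongase, had -1.23 against CON (SE 0.32, adjusted p = 0.0057). Both were highest in library 3 within MAL-BG and lowest in library 1 within CON. These libraries again had the highest and lowest choroid plexus, astrocyte, neuron, and endothelial sums of those groups. Cyp46a1, the hydroxylase by which neurons turn cholesterol into an oxysterol that leaves the brain, was 2.17-fold lower than in CON (log2 fold change -1.12, SE 0.27, adjusted p = 0.0032), beside 7 of 8 neuron markers that were lower DEGs.

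Lpl was the 1 higher DEG of this list in both comparisons. It codes for lipoprotein lipase, which frees fatty acids from lipoproteins. CPM were 51.1, 36.1, 44.4, and 42.8 in CON and 56.5, 37.9, 31.8, 71.6, and 40.5 in MAL. MAL-BG ran from 75.9 through 94.3 to 129, above all 9 other libraries. Lpl was 2.24-fold higher than in CON (log2 fold change 1.16, SE 0.20, adjusted p = 0.00032) and 2.05-fold higher than in MAL (1.03, SE 0.18, adjusted p = 0.00042). The 6 genes of sterol release from lysosomes had positive values in both comparisons without a DEG. Over all 14565 genes tested, 6915 were positive against CON and 7024 against MAL. Against CON, 4 of the 6 passed the adjusted p, beside 19.8% of all genes that did so in the higher direction. Against MAL 3 of the 6 passed, beside 20.2%.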

How the data were processed

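RNA-Seq libraries of CD11b+ brain cells, 1 per mouse, numbered 4 for CON, 5 for MAL, and 7 for MAL-BG. From stranded poly(A) libraries the authors aligned paired reads to GRCm38.p6 with STAR, counted reads per gene by HTSeq, and deposited these raw counts. The gene annotation and strand option of the counting are not given in the sources used here. Groups were taken from column names, whose running numbers match no sample title. The 31 genes and all gene and marker lists were chosen with earlier results of these data known. All 31 are named. Of the other cholesterol genes, the 8 DEGs of both MAL-BG comparisons with the most extreme fold changes against CON are named, and a few genes the naming rule listed are not reported here.

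A gene entered the test where 4 or more libraries held over 10 counts. Scaling was by TMM, and 1 edgeR 4.0.16 quasi-likelihood fit in R 4.3.3 held all 3 groups. No batch term was used. P-values were adjusted by Benjamini-Hochberg over all genes tested within each comparison and are two-sided. CPM use the TMM-scaled library size, means are given ± SD, and levels per kb divide by the union of GENCODE M21 exons. Coordinates and promoters are those of RefSeq on GRCm38.p6. Log2 fold changes are edgeR's, and the script was tested on simulated data. DESeq2 1.42.0, other scalings and filters, thinned counts, and fits without libraries were the alternatives. No pair of libraries of a group agreed within sampling noise (chi-square per degree of freedom at least 9.8). With 1 library per mouse, p-values measure the spread between the libraries of a group. The methods describe mice housed in groups. Neither the cage nor the batch of a library is given in the sources used here, and neither was modelled. Depth limits the weakest gene, Idi1.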

Additional observations from a re-analysis of the deposited data

Results flagged for a closer look

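Within groups, single libraries stood far from the others in 5 of 93 sets of gene values and 3 of 27 sets of marker sums, by Dixon's test on the gap to the nearest library. Chance gives about 1 in 20. Mvk was low in MAL-BG library 6, at 8.26 CPM, the MAL-BG library lowest in Pmvk, Fdft1, Cyp51, and Msmo1 as well. Dhcr7 was high in MAL-BG library 1, at 34.3 CPM. Scap was low in MAL library 1, at 65.4 CPM. Insig2 was high in CON library 2, at 59.4 CPM, and Nr1h3 was low in CON library 1, at 5.07 CPM. Summed choroid plexus markers were high in MAL-BG library 3, at 13096 CPM. Summed neutrophil markers were high in MAL-BG library 5, at 11470 CPM, and summed border macrophage markers in MAL library 4, at 737 CPM.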

How the results depend on the processing

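No paired analysis was possible because the running numbers of the columns match no sample title and pair no mice across groups. Depth limits the weakest genes, above all Idi1. Of the 9 cholesterol genes that were DEGs in both MAL-BG comparisons, none changed sign under any alternative run, and the calls lost are given in the report. With 1 library left out in turn, DEGs among the 31 genes numbered 9 to 11 against CON (4 to 5 higher, 4 to 7 lower) and 9 to 10 against MAL (4 to 4 higher, 5 to 6 lower), and 0 in MAL against CON. The alternatives without MAL-BG libraries 3 and 5, without CON library 1 and MAL library 4, and without either set of MAL-BG libraries were chosen after seeing the data.

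Scaling by mean log2 CPM moved the median of all genes to 0.21 against CON and 0.19 against MAL and turned the split of DEGs against CON to 3298 higher and 2403 lower, beside 1659 and 3161 in the reported fit. With length and GC offsets as well, the medians were 0.21 and 0.20, the split was 3247 and 2356, and 8 of the 31 genes were higher DEGs against CON and 7 against MAL. Those added were Msmo1, Scap, and Abca1 in both comparisons and Dhcr7 against CON. Nsdhl was not a DEG against CON by mean log2 CPM scaling (-0.45, adjusted p = 0.15), in a fit of the compared groups alone (-0.71, adjusted p = 0.062), or without CON library 1 and MAL library 4 (-0.57, adjusted p = 0.11).

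Counts of the 42 other genes moved more. Higher DEGs among them numbered 10 against CON and 8 against MAL by mean log2 CPM scaling, and 13 (of 21 DEGs) and 11 (of 19) with the offsets. With no fold threshold they were 11 (of 23) and 8 (of 19). Against MAL they were 3 by DESeq2 size factors and by the DESeq2 test, 2 with no filter, 2 with thinned libraries (1 against CON), and 4 without MAL-BG libraries 3 and 5. Without CON library 1 and MAL library 4 they were 4 and 4. Without MAL-BG libraries 1, 5, and 6 they were 4 and 2, with 6 lower against MAL, and without libraries 2, 3, 4, and 7 they were 7 and 5. With 1 library left out in turn they ran from 1 to 4 against CON and from 1 to 3 against MAL.

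Signs turned for genes that were not DEGs. By mean log2 CPM scaling the log2 fold changes against CON were 0.24 for Mvd, 0.058 for Fdps, 0.082 for Tm7sf2, 0.055 for Hsd17b7, and 5.4e-05 for Nr1h3. Against MAL they were 0.19, 0.0036, 0.12, 0.15, and 0.087 in the same order. With the offsets Mvd had 0.16 and 0.016 in the 2 comparisons, Tm7sf2 0.047 and 0.089, Hsd17b7 0.021 and 0.16, and Srebf2 0.079 against CON. Mvd against CON was 0.017 by DESeq2 size factors, 0.013 by the DESeq2 test, and 0.014 with no filter. Mvd was 0.024 and 0.0016 without MAL-BG libraries 3 and 5, and 0.065 and 0.033 without CON library 1 and MAL library 4. The latter also gave -0.023 for Cyp51 and 0.29 for Tm7sf2 against CON. Without MAL-BG libraries 1, 5, and 6, Mvd had 0.097 and 0.060, and Nr1h3 0.044 and 0.14. Without libraries 2, 3, 4, and 7, Mvk had -0.11 against CON, Fdps 0.084 and 0.048, Cyp51 -0.27 and -0.28, Srebf1 -0.12 and -0.013, and Hsd17b7 0.10 against MAL.

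With 1 library left out in turn, log2 fold changes against CON ran from -0.12 to 0.18 for Cyp51, -0.072 to 0.10 for Mvd, -0.016 to 0.14 for Mvk, -0.046 to 0.22 for Sc5d, -0.00053 to 0.15 for Srebf1, and -0.28 to 0.20 for Tm7sf2. Against MAL they ran from -0.19 to 0.11 for Hsd17b7, -0.067 to 0.028 for Mvd, -0.29 to 0.0027 for Nr1h3, and -0.0033 to 0.20 for Sc5d. The causes of these changes were not tested.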
